A study of Sus scrofa with 8 samples.

Results

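The genes described here carry peptides to the cell surface for T cells. The swine leukocyte antigens (SLA) are the pig's major histocompatibility complex (MHC). A list of 7 genes was used, chosen with earlier results of these data known. It holds B2M, SLA-1, SLA-8, TAP1 and TAP2 of the class I pathway, and SLA-DRA and CD74 of the class II pathway. Members were all probe sets whose annotation on the Affymetrix porcine array gives a single listed symbol. That rule found 5 genes, of 6765 genes with such a probe set, in 16 of 23935 probe sets, of which 14 belong to class I and 2 to class II. SLA-1 and TAP2 had no probe set of their own symbol. A gene is led by its probe set of highest mean over the 8 arrays, which leaves 5 lead probe sets.

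Biceps femoris, a hind-limb muscle, was profiled in female domestic piglets sedated and mechanically ventilated for 5 days, with 1 array per sample. The 4 corticosteroid arrays came from piglets given bolus hydrocortisone, a glucocorticoid, and the 4 control arrays from piglets given sedation and ventilation. All 8 samples, controls included, are labelled as acute quadriplegic myopathy, the limb weakness of intensive care. For the corticosteroid samples the protocol gives 8 piglets averaging 26.4 kg and mentions no endotoxin. For the control samples it gives 4 piglets averaging 25.5 kg and mentions endotoxin at 36 µg/kg/h for 1 h, which their source label leaves out. The series text also names the neuromuscular blocker pancuronium without saying which animals received it. Hydrocortisone, endotoxin and any processing batch therefore cannot be told apart. The ages of the piglets are not given in the sources used here, and no label ties an array to a separate animal. The p-values cover array-to-array spread, which may be technical. The muscle label was borne out by its markers, since 8 of 8 measured muscle genes passed the filter on low values. Creatine kinase (CKM) averaged 14.03 ± 0.03 on corticosteroid arrays and 13.93 ± 0.06 on control arrays (log2, SD, n = 4 each). Of the 8 genes, 2 had all corticosteroid arrays below all controls and 2 above, against 2.51% and 3.05% of all tested probe sets. After adjustment 0 of the 8 passed.

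Class I molecules consist of a polymorphic heavy chain and the small invariant chain β2-microglobulin, and they present peptides from inside the cell. TAP1 and TAP2 form the pump that moves these peptides into the endoplasmic reticulum, where tapasin and other chaperones load them. Class II molecules pair an α chain such as SLA-DRA with a β chain, and the invariant chain CD74 guards their groove until lysosomal proteases remove it. Most nucleated cells make class I, whereas class II is made mainly by macrophages, dendritic cells and B cells. In bulk muscle, fewer cells of a type and less RNA per cell cannot be told apart.

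Each value is a log2 expression level of a probe set, and a difference is corticosteroid minus control on that scale. In the deposited table the corticosteroid columns did not appear to follow the row order of the control columns. They were re-assigned to probe IDs sorted as text with full stops ignored, an order found from the values. It moves the corticosteroid values of 5 of the 16 member probe sets, among them 4 of the 5 leads, and only the TAP1 lead stays in its row. The mean corticosteroid level of the B2M lead was 4.55 as deposited and 13.52 after re-assignment, beside a control mean of 13.80. For SLA-DRA it was 5.01 as deposited and 9.44 after re-assignment, beside a control mean of 9.43. For CD74 the same 3 means were 10.29, 8.46 and 8.61, and for SLA-8 they were 7.99, 7.71 and 8.09. All values below use the re-assigned order and rest on it.

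No member differed between the groups after adjustment. The lead probe sets of the class I genes B2M, SLA-8 and TAP1 had lower means with corticosteroid by 0.26 to 0.38 log2 units, while the class II genes SLA-DRA and CD74 differed by 0.01 and -0.15. In limma, with Benjamini-Hochberg adjustment over the 14361 probe sets whose mean lay above the 40th percentile (log2 5.27), 0 of 15 tested member probe sets passed at 0.05, and 0.0% of all tested probe sets did. At an unadjusted p under 0.05 there were 2 member probe sets, both of B2M and both lower. Over all tested probe sets 9.49% reached that level, 4.71% lower and 4.78% higher, and the smallest adjusted p was 0.469. Of the 15 tested member probe sets 10 had lower means with corticosteroid, and 5 had higher means, against 47.2% lower and 52.8% higher of all tested probe sets, and 9 of the 15 are annotated to B2M alone. The median difference was -0.26 over those 15 and 0.0205 over all tested probe sets.

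The lead probe set of B2M, the light chain shared by all class I molecules (Ssc.12809.5.A1_at), stood at 13.52, 13.42, 13.57 and 13.57 on corticosteroid arrays, against 13.80, 13.93, 13.87 and 13.60 on control arrays. All 4 corticosteroid arrays lay below all 4 control arrays, with control replicate 4 just above the highest of them. Of all tested probe sets 2.51% had this order and 3.05% the opposite one. The difference was -0.28 (SE 0.09, 95% interval -0.49 to -0.07), a fold of 0.822, with a limma adjusted p of 0.479. The exact two-sided permutation p was 0.0286, the smallest that 4 arrays against 4 can give.

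**Figure D1:**
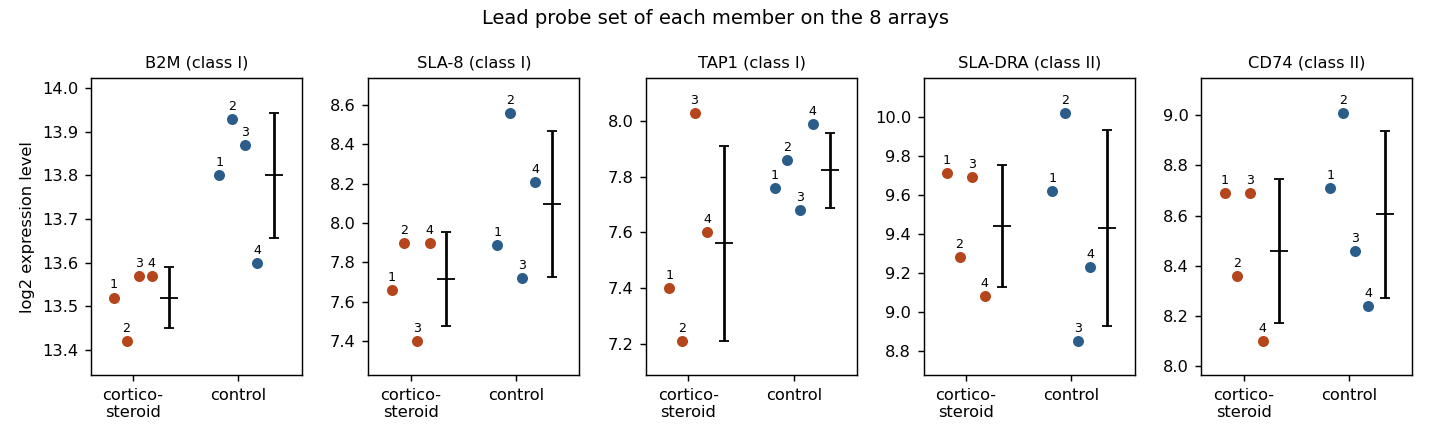
Log2 expression level (vertical axis, own scale per panel) of the lead probe set of 5 genes on the 4 corticosteroid and 4 control arrays, with replicate numbers beside the points and the mean ± SD as a bar. B2M is the only panel in which the groups do not overlap, and control replicate 2 is highest in 4 of the 5 panels.

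The other 8 probe sets annotated to B2M did not give 1 answer. Ssc.12348.1.S1_at, in a row the re-assignment leaves alone, stood at 12.66, 12.42, 12.92 and 12.45 with corticosteroid, against 12.94, 13.26, 12.66 and 12.61 in controls. Its groups overlapped, and its difference of -0.26 (SE 0.17, limma adjusted p = 0.624) was close to that of the lead. Ssc.12348.2.S1_at, also in an unmoved row, differed by -0.32 (SE 0.28, adjusted p = 0.698 in limma). In contrast, Ssc.5896.1.S1_at stood at 12.92, 12.99, 12.92 and 13.05 with corticosteroid, against 12.83, 13.11, 12.87 and 12.99 in controls. That is a difference of 0.02, with a 95% interval of -0.20 to 0.24, beside -0.49 to -0.07 for the lead. These intervals overlap, and whether this probe set differs from the lead was not tested.

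The remaining B2M probe sets spread more widely. Ssc.7768.1.A1_at had the lowest unadjusted p of the members (0.0114, limma adjusted p = 0.479), at 7.41, 7.15, 6.76 and 6.51 with corticosteroid, against 7.24, 8.43, 8.62 and 7.67 in controls. Control replicate 1 lay among the corticosteroid arrays, so the groups overlapped, and the difference was -1.03 (SE 0.33). Ssc.8925.1.S1_at covered a range of 5.55 log2 units within the control group alone, from 7.93 to 13.48, and 3.09 units among corticosteroid arrays, and its difference of -0.68 had an SE of 1.09. Ssc.17269.1.S1_at, Ssc.19916.2.S1_a_at and Ssc.12809.4.S1_a_at had higher means with corticosteroid, by 0.29, 0.12 and 0.03, each within the spread between arrays.

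Likeness among these probe sets was also described by the correlation of deviations from the group means over the 8 arrays. The pair Ssc.12348.1.S1_at and Ssc.12348.2.S1_at had Pearson's r = 0.88 (Spearman's rho 0.79), and 0.67 without the 2 arrays farthest from the median. The lead correlated with this pair at 0.62 and 0.81, and at 0.34 and 0.51 without 2 such arrays. With Ssc.5896.1.S1_at the lead had r = 0.11, and 0.76 without 2 such arrays, so which probe sets were most like the lead rests on those arrays. These are descriptions over 8 arrays that share their scaling. The current porcine gene table of RefSeq (Sscrofa11.1) holds 2 neighbouring genes named B2M, and how far each probe set reads either of them was not tested.

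**Figure D2:**
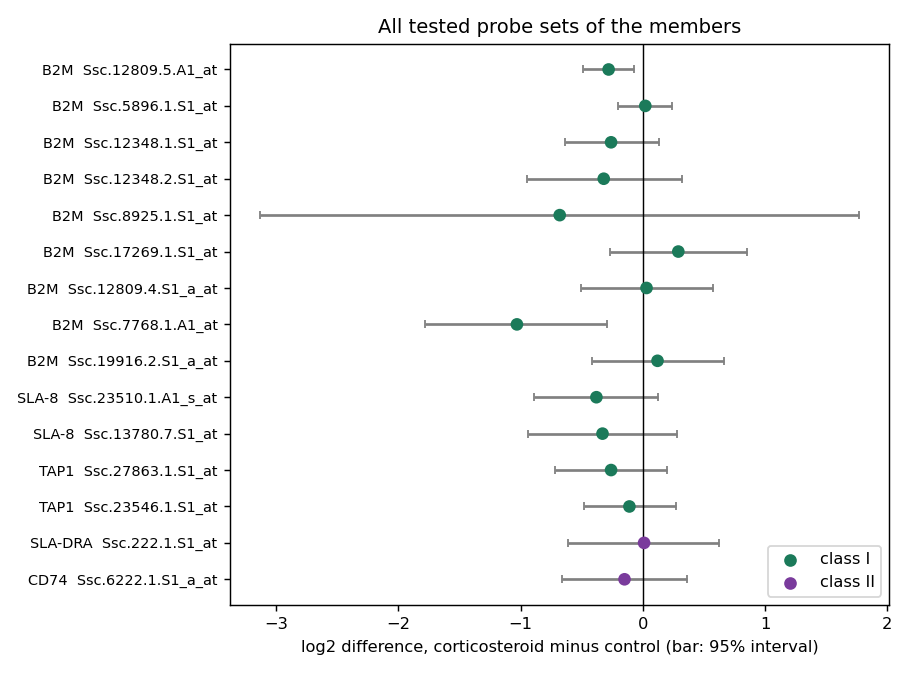
Log2 difference, corticosteroid minus control, with its 95% interval from limma (horizontal axis) for the 15 tested probe sets of the members, class I in green and class II in purple. The intervals of 2 B2M probe sets lie below 0, and the interval of B2M probe set Ssc.8925.1.S1_at runs from -3.13 to 1.77.

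SLA-8, a class Ib heavy chain, was measured by 2 probe sets. The lead, Ssc.23510.1.A1_s_at, stood at 7.66, 7.90, 7.40 and 7.90 on corticosteroid arrays, against 7.89, 8.56, 7.72 and 8.21 on control arrays. Corticosteroid replicate 3 was lowest and control replicate 2 highest, and the groups overlapped. The difference was -0.38 (SE 0.22, limma adjusted p = 0.585), and -0.23 without control replicate 2. The second probe set gave nearly the same size, -0.33 (SE 0.27, adjusted p = 0.676 in limma), in a row the re-assignment does not move. Class I heavy chains resemble one another in sequence, so these probe sets may also read other class I genes, which was not tested.

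TAP1, a subunit of the peptide pump, stood at 7.40, 7.21, 8.03 and 7.60 on corticosteroid arrays, against 7.76, 7.86, 7.68 and 7.99 on control arrays in its lead probe set, Ssc.27863.1.S1_at. Corticosteroid replicate 3 was the highest of the 8 arrays and replicates 1 and 2 the lowest, so the treated arrays spread over 0.82 log2 units and the controls over 0.32. The difference was -0.26 (SE 0.20, limma adjusted p = 0.665), and it was -0.15 without corticosteroid replicate 2 and -0.42 without corticosteroid replicate 3. A second probe set, Ssc.23546.1.S1_at, differed by -0.11 (SE 0.17). The third, Ssc.23546.2.A1_at, lay below the filter at 4.37, 4.48, 4.46 and 4.44 with corticosteroid, against 4.27, 4.31, 4.16 and 4.13 in controls. It was the only member not tested, and the only one whose corticosteroid arrays all lay above the controls. Averaged over its 3 probe sets TAP1 differed by -0.05.

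SLA-1, a classical class I heavy chain, appeared only in 4 probe sets that the annotation shares with other class I genes. None of these is named for SLA-1 here. In the bright one of a 3-gene set (Ssc.13780.10.S1_x_at), levels were 11.05, 10.88, 11.38 and 10.87 with corticosteroid, against 11.40, 11.47, 10.80 and 10.95 in controls, a difference of -0.11 (SE 0.20). A probe set shared by 2 genes, Ssc.13780.11.S1_x_at, stood at 7.27, 7.60, 8.88 and 7.54 with corticosteroid, against 7.16, 4.04, 8.75 and 4.65 in controls. There, control replicates 2 and 4 lay more than 2 log2 units below the other 6 arrays, and the difference of 1.67 had an SE of 0.93. The other 2 shared probe sets lay below the filter.

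Among the class II members, SLA-DRA, the α chain of the DR molecule, stood at 9.71, 9.28, 9.69 and 9.08 on corticosteroid arrays, against 9.62, 10.02, 8.85 and 9.23 on control arrays. The control arrays held both the highest and the lowest value, and the group means were 9.44 ± 0.31 and 9.43 ± 0.50 (SD, n = 4 each). The difference of 0.01 had a 95% interval of -0.61 to 0.62 (limma adjusted p = 0.994). Differences of the size seen in the class I leads lie within that interval. Leaving out single arrays moved it between -0.18 and 0.21.

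CD74, the invariant chain, stood at 8.69, 8.36, 8.69 and 8.10 on corticosteroid arrays, against 8.71, 9.01, 8.46 and 8.24 on control arrays. Corticosteroid replicate 4 was lowest, control replicate 2 was highest, and the groups overlapped. The difference was -0.15 (SE 0.23, 95% interval -0.66 to 0.36, limma adjusted p = 0.835), and -0.01 without control replicate 2.

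Averaged as deviations from each gene's mean, the 3 class I leads lay at -0.23, -0.24, -0.08 and -0.06 on corticosteroid arrays, against 0.07, 0.37, 0.01 and 0.18 on control arrays. The 2 class II leads lay at 0.22, -0.16, 0.20 and -0.40 on corticosteroid arrays, against 0.18, 0.53, -0.33 and -0.25 on control arrays. The groups did not overlap for class I, with corticosteroid replicate 4 and control replicate 3 nearest to each other, and they overlapped for class II. Of the 3 class I leads only B2M had groups that did not overlap, while SLA-8 and TAP1 overlapped. How often an average of 3 genes separates the groups over all genes was not examined. The class II minus class I value was 0.45, 0.08, 0.29 and -0.34 with corticosteroid, against 0.11, 0.17, -0.33 and -0.43 in controls, and these groups overlapped. The median difference was -0.28 over the class I leads and -0.07 over the class II leads. The difference between the classes was not tested, and the class I value rests on 3 genes.

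**Figure D3:**
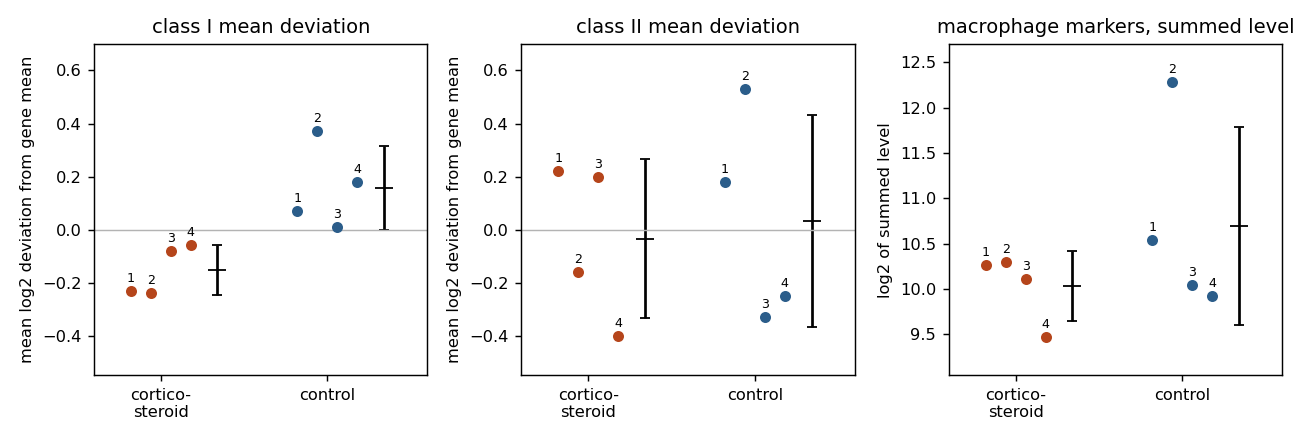
Mean log2 deviation from the gene mean for the 3 class I leads (left) and the 2 class II leads (middle), and the log2 of the summed level of 9 macrophage markers (right), on the 4 corticosteroid and 4 control arrays, with replicate numbers and the mean ± SD as a bar. Class I values of corticosteroid arrays run from -0.24 to -0.06 and those of controls from 0.01 to 0.37, while control replicate 2 stands highest for class II (0.53) and for the macrophage markers (12.28).

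Control replicate 2 also stood apart in leukocyte markers, though not in these alone. The 4 measured fibroblast markers summed to a log2 of 12.36 on it, beside 10.95 to 11.93 on the other arrays. The 8 measured muscle markers summed to 16.07, beside 16.25 to 16.41 on the other arrays. How often this array was highest over all probe sets was not counted. It was the highest of the 8 arrays for 9 of the 9 measured macrophage markers. Their summed level had a log2 of 9.47 to 10.30 on corticosteroid arrays and 9.92 to 12.28 on control arrays, and the control mean of 10.70 became 10.17 without this array. The calcium-binding AIF1 stood at 9.62 on it, the scavenger receptor CD163 at 9.67 and the endotoxin co-receptor CD14 at 7.40. The complement subunit C1QA was at 7.85. All 9 macrophage markers had lower means with corticosteroid, by 0.38 to 1.23, against 47.2% of all tested probe sets, and none passed (smallest limma adjusted p 0.56). The 1.23 belongs to SPI1, named after its values were seen. It stood at 8.48 on control replicate 2, 4.83 to 5.82 on the other controls and 4.81 to 5.02 on corticosteroid arrays. SPI1 passed the filter only through control replicate 2. Without control replicate 2 the difference was -0.18 for AIF1, -0.04 for CD163, 0.09 for CD14 and -0.29 for C1QA. TYROBP and MRC1, also named after their values were seen, then had higher means with corticosteroid, as CD14 did. The part of these cells in the MHC differences was not tested.

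Most markers of B cells, dendritic cells and T cells were near the floor. The shared leukocyte marker PTPRC averaged 4.97 ± 0.18 on corticosteroid arrays and 5.07 ± 0.53 on control arrays (SD, n = 4 each), with 5.75 on control replicate 2. Both means lay under the filter level. The T-cell chain CD3E lay under it too, as did 6 of 7 T-cell markers, the 1 measured B-cell marker and both dendritic markers. CD68 and CD79A had no probe set of their own symbol. Of the 4 tested markers shared by leukocytes, 3 had lower means with corticosteroid and 1 a higher one. CORO1A, an actin-binding protein of leukocytes, differed by 0.01 (SE 0.18) and the actin bundler LCP1 by -1.45 (SE 0.89), both with overlapping groups. LCP1 stood at 9.52 on control replicate 2, 4.55 to 5.64 on the other controls and 4.66 to 5.03 on corticosteroid arrays, and passed the filter only through that array. LAPTM5 and ITGB2, named like CORO1A and LCP1 after their values were seen, differed by -1.55 (SE 0.60) and -1.28 (SE 0.68). For both, all corticosteroid arrays lay below all control arrays, as they did for 2.51% of all tested probe sets. The limma adjusted p-values were 0.482 and 0.56. Without control replicate 2 they differed by -0.87 and -0.45. The endothelial marker PECAM1 differed by -0.15 (SE 0.18), and the 5 endothelial markers summed to a log2 of 10.41 to 10.65 with corticosteroid and 10.38 to 10.78 in controls.

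The rest of the class I pathway did not move one way. Of 20 listed genes 12 had a probe set and 11 were tested, with 5 lower and 6 higher means, a median difference of 0.02 and 0 past the limma threshold, nor any at an unadjusted p under 0.05. PSMB8, the immunoproteasome subunit that RefSeq places between TAP2 and TAP1, differed by -0.65 (SE 0.35) and by -0.29 without control replicate 2, where it stood at 8.67. PSMB10, another immunoproteasome subunit, differed by -0.45 (SE 0.31), and by -0.13 without that array. Among the chaperones of peptide loading, calnexin (CANX) differed by -0.53 (SE 0.30), and by -0.32 without control replicate 2. Averaged over its 6 probe sets it differed by -0.52, with a limma p of 0.0161 unadjusted and 0.506 adjusted. The differences were 0.26 (SE 0.17) for calreticulin (CALR) and 0.04 (SE 0.17) for tapasin (TAPBP). The smallest limma adjusted p of the list was 0.562. PSMB9 and NLRC5, the class I transactivator, had no probe set of their own symbol.

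The classical heavy chains SLA-3 and SLA-2, chosen here after their values were seen, did not share a direction. SLA-3 stood at 10.17, 10.16, 10.35 and 10.04 on corticosteroid arrays, against 10.09, 10.20, 9.87 and 9.59 on control arrays, a difference of 0.24 (SE 0.18). SLA-2 stood at 11.15, 11.15, 11.57 and 11.04 on corticosteroid arrays, against 11.72, 11.55, 10.86 and 10.98 on control arrays, a difference of -0.05 (SE 0.22) that turned to 0.10 without control replicate 1 and to 0.04 without control replicate 2. Both sit in rows that the re-assignment leaves alone, and both overlapped between groups. The 95% intervals were -0.16 to 0.65 for SLA-3 and -0.55 to 0.45 for SLA-2. That of SLA-2 contains the differences of the class I leads, and whether either gene departs from those leads was not tested.

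**Figure D4:**
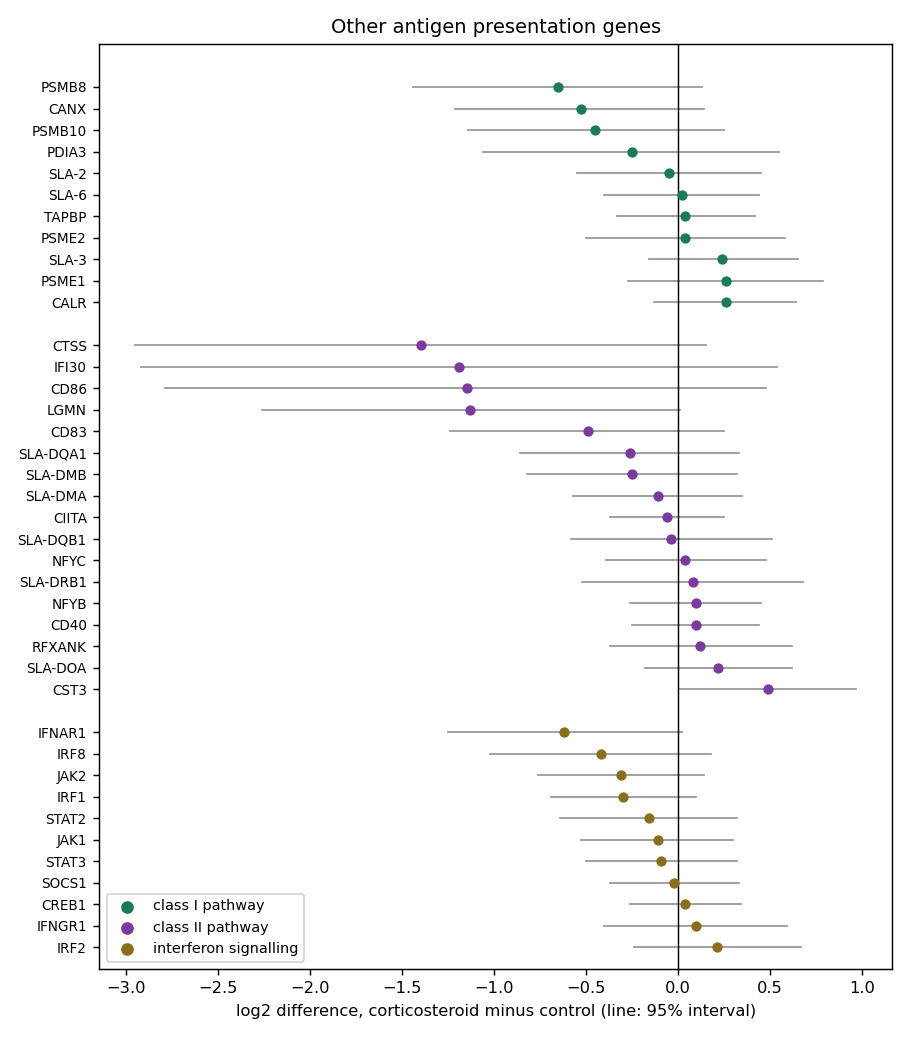
Log2 difference, corticosteroid minus control, with its 95% interval from limma (horizontal axis) for 39 tested genes of the class I pathway (green), the class II pathway (purple) and interferon signalling (brown). The 3 groups straddle 0, and the widest intervals belong to IFI30, CD86 and CTSS, for which control replicate 2 was the highest array.

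For class II, 28 further genes were listed, 18 had a probe set and 17 were tested, with 10 lower and 7 higher means and a median difference of -0.06. None passed the threshold (smallest limma adjusted p 0.524), and 1 was higher at an unadjusted p under 0.05. That gene was CST3, the cathepsin inhibitor cystatin C, at a difference of 0.49 (SE 0.21). Averaged over its 3 probe sets the difference was 0.28, with an unadjusted limma p of 0.203. Among the lysosomal proteases, cathepsin S (CTSS), which trims the invariant chain, differed by -1.40 (SE 0.69) and legumain (LGMN), which cuts antigen, by -1.13 (SE 0.50). The lysosomal thiol reductase IFI30, picked after its values were seen, differed by -1.19 (SE 0.77), and by -0.25 without control replicate 2. CTSS stood at 12.18 on control replicate 2 and at 8.25 to 9.35 on the other controls, beside 8.18 to 8.75 on corticosteroid arrays. Without control replicate 2 the differences were -0.60 for CTSS and -0.55 for LGMN. The co-stimulatory ligand CD86 differed by -1.15 (SE 0.73), and by -0.25 without the same array. CD86 stood at 8.74 on that array, 4.98 to 5.27 on the other controls and 4.72 to 5.18 on corticosteroid arrays. It passed the filter only through control replicate 2, and the -0.25 compares values near or under the filter level. Control replicate 2 was the highest array for 11 of the 18 genes. CIITA, the class II transactivator, differed by -0.06 (SE 0.14).

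The tested class II chains outside the member list, also chosen after their values were seen, had differences from -0.26 to 0.22. The highest was that of SLA-DOA, 0.22 (SE 0.18). The DR β chain SLA-DRB1 differed by 0.08 (SE 0.27), the DQ chains SLA-DQA1 and SLA-DQB1 by -0.26 (SE 0.27) and -0.04 (SE 0.24), and SLA-DMB, part of the peptide exchanger, by -0.25 (SE 0.25). Without control replicate 2 the differences were 0.32 for SLA-DRB1, -0.08 for SLA-DQA1, 0.16 for SLA-DQB1 and -0.03 for SLA-DMB. As deviations from the group means over 8 arrays, CD74 and SLA-DRA had r = 0.88 (rho 0.90), and 0.87 without the 2 arrays farthest from the median. SLA-DRA had r = 0.79 with SLA-DRB1, 0.81 with SLA-DQA1, 0.88 with SLA-DQB1 and 0.86 with SLA-DMB. Without 2 such arrays these were 0.43, 0.86, 0.66 and 0.68. It had r = 0.13 with CIITA, and 0.10 without 2 such arrays. With SLA-DMA, the partner of SLA-DMB, it had 0.30, which turned to -0.69 without them. Within class I, the SLA-8 lead had r = 0.92 with B2M probe set Ssc.5896.1.S1_at, and 0.90 without 2 such arrays. With the B2M lead it had -0.06, and 0.55 without them. Across the classes, B2M probe set Ssc.12348.1.S1_at had r = 0.91 with CD74 and 0.89 with SLA-DRA, and 0.86 and 0.84 without 2 such arrays. Within class I that probe set had 0.82 with SLA-2 and 0.87 with SLA-3, and 0.79 and 0.77 without them. The B2M lead had 0.56 with CD74, 0.30 with SLA-DRA, 0.35 with SLA-2 and 0.71 with SLA-3. Without 2 such arrays these were 0.15, 0.10, -0.06 and 0.31. Apart from the lead, the B2M probe sets in these pairs were picked after their values were seen. All these correlations are descriptions over the same 8 arrays.

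Of 5405 other genes ranked by the correlation of such deviations, IRF1, an interferon-induced transcription factor that activates class I genes, was most like the B2M lead (r = 0.982, rho 0.976, n = 8 arrays). It was followed by HDHD3 (0.951) and INPP5F (0.935). Without the 2 arrays farthest from the median, r for IRF1 was 0.89. IRF1 stood at 6.47, 6.22, 6.51 and 6.50 on corticosteroid arrays, against 6.80, 6.96, 6.82 and 6.31 on control arrays. Its difference of -0.30 (SE 0.17, limma adjusted p = 0.586) had the same sign as that of B2M, with control replicate 4 among the treated arrays. For SLA-DRA the most similar genes were the inflammatory protease CASP1 (0.944), the splicing factor SF3A1 (0.928) and MOSPD2 (0.925). For CD74 they were SLA-DQA1 (0.959), ELMO1 (0.953) and UCHL1 (0.944). The highest of 5405 values over 8 arrays is high by selection.

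Interferon signalling, which drives both classes, was represented by 11 tested genes of 17 listed, 8 lower and 3 higher with a median difference of -0.11, and 0 passed the limma threshold or an unadjusted p under 0.05. The type I interferon receptor chain IFNAR1 differed by -0.62 (SE 0.28, limma adjusted p = 0.529), and by -0.33 without control replicate 2. All its corticosteroid arrays lay below all controls, an order that 2.51% of all tested probe sets had. The transcription factor IRF8 differed by -0.42 (SE 0.27) and the kinase JAK2 by -0.31 (SE 0.20), and by -0.14 and -0.11 without that array. Interferon-γ itself (IFNG), named after its values were seen, lay under the filter level. It averaged 3.76 ± 0.19 on corticosteroid arrays and 3.77 ± 0.22 on control arrays (SD, n = 4 each).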

How the data were processed

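The deposited table holds 1 log2 expression level per probe set and array. Per the submitters' processing notes MAS5 was used, and the sources used here do not say how the authors scaled these log2 values between arrays. Array medians ran from 5.863 to 5.965, so no scaling was added. The number of arrays limits the precision. The members and gene lists were chosen with earlier results of these data known.

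Corticosteroid values were re-assigned to IDs sorted with full stops ignored, which moves 39.1% of 23999 rows. There, across probe sets, the corticosteroid and control means had r = 0.9888 re-assigned and 0.0997 as deposited. The 64 reporter probe sets were left out. Symbols came from the platform annotation, with 10069 probe sets of 1 symbol, 198 of several, left unnamed unless stated, and 13732 of none.

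Groups came from the sample titles. limma 3.58.1 (R 4.3.3; lmFit, then eBayes with trend) was run on 14361 probe sets above the 40th percentile, with Benjamini-Hochberg adjustment at 0.05. The fit was tested on simulated data. Single probe sets also got an exact permutation p, two-sided. Tables used Python 3.11.15, pandas 2.3.3, numpy 2.4.6 and scipy 1.17.1. Named were all members, the 4 genes of smallest p per pathway list, 8 fixed pathway genes, 10 fixed markers and the 3 genes most like B2M, SLA-DRA and CD74. Others are marked as chosen after their values were seen. Alternatives covered a replicate block, normalization, filter, 16 added before log2, variance models, array weights, averaged probe sets, row order and left-out arrays.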

Additional observations from a re-analysis of the deposited data

Results flagged for a closer look

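Within groups of 4 arrays, 88 sets of values were examined for a single array far from its 3 companions, and 5 had one, where chance gives about 1 in 20. B2M probe set Ssc.17269.1.S1_at stood at 8.95 on corticosteroid replicate 4, against 7.99 to 8.15 on the other corticosteroid arrays. CD86 stood at 8.74 on control replicate 2, against 4.98 to 5.27 on the other controls. AIF1 stood at 9.62 on the same array, against 6.22 to 6.67. IRF1 stood at 6.22 on corticosteroid replicate 2, against 6.47 to 6.51. TAPBP stood at 7.90 on control replicate 4, against 7.58 to 7.60.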

How the results depend on the processing

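The row order decides the calls. With rows as deposited, limma called 5454 of all probe sets, 5 of 15 member probe sets and 15 of 36 other antigen presentation genes, and the class II median was -1.37. There B2M differed by -9.25 and stayed lower. Signs turned for CD74 (1.68), SLA-DRA (-4.42), SLA-DRB1 (-3.27), SLA-DQA1 (1.61), SLA-DMB (0.41), CALR (-4.08), PSMB10 (0.10), CST3 (-0.84), IFNAR1 (1.17), JAK2 (0.75), C1QA (2.10) and CKM (-6.26). In the other alternatives no member probe set and no other antigen presentation gene passed, and the differences of B2M, SLA-8 and TAP1 stayed negative. With the replicate block the B2M difference was -0.28 (limma adjusted p = 0.532), and it changed no call. Same-numbered arrays deviated together with r of -0.246, 0.109, 0.105 and 0.053, so the numbers were not taken as pairs. Leaving out single arrays gave 0 to 1 calls over all probe sets, the 1 without control replicate 3, and 894 to 1777 at an unadjusted p under 0.05. The class I median then ran from -0.34 to -0.24 and the class II median from -0.19 to 0.10. Dropping the filter took the unadjusted count to 2160 and the deposited row order to 6101, beside 1363 in the reported fit.

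Small differences turned sign. Quantile normalization gave -0.0016 for SLA-DRA. Array weights gave 0.04 for CD163, 0.02 for SLA-2 and 0.06 for SLA-DQB1. Without control array 2 and corticosteroid array 4 the values were 0.11 for CD74, 0.47 for CD163, 0.10 for CD14, 0.10 for SLA-2, 0.06 for SLA-DQA1 and 0.17 for SLA-DQB1, and the class II median was 0.22. Leaving out single arrays moved SLA-DRA between -0.18 and 0.21, with -0.06, -0.08 and -0.07 without control replicate 4 and corticosteroid replicates 1 and 3. It turned SLA-2 to 0.10, 0.04 and 0.01, SLA-DRB1 to -0.05, -0.03 and -0.02, SLA-DQB1 to 0.0058, 0.16 and 0.03, CD14 to 0.09 and TAPBP to -0.0038, within ranges of -0.05 to 0.32 for SLA-DRB1, -0.64 to 0.09 for CD14 and -0.0038 to 0.12 for TAPBP. The causes were not tested.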
